A study of Homo sapiens with 15 samples.

Results

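Core autophagy machinery is the set of genes whose proteins start, shape and close the autophagosome. It was examined here as 39 named genes, of 19483 genes that could be named on the array. Members were taken through the RefSeq accession that the scanner files give each probe, and each gene was read from its brightest probe that was well above the local background. A probe was found for 38 members, and 36 were tested. No probe was matched to NBR1, a cargo receptor. ATG14, the subunit that directs the class III PI3-kinase to autophagosome formation, was well above background on 8 of 9 NCE arrays and on 5 of 6 CYGB+ arrays, and so missed the requirement of every array of a group. MAP1LC3A, an ATG8 protein, was well above background on 1 NCE array and 2 CYGB+ arrays. All 36 tested members were well above background on all 15 arrays, and none was saturated.

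The cells were PE/CA-PJ41, an established line from an oral squamous cell carcinoma, of which stable clones were selected with G418 after transfection. The sample labels give cells called NCE (non-cytoglobin expressing) an empty vector, while the study's text elsewhere calls its control cells un-transfected, so whether NCE passed through transfection and selection is not settled here. Cells labelled CYGB+ carried pCMV6-Neo with the cDNA of human cytoglobin, a haem protein, behind the viral promoter of that vector. The CYGB+ cells are 1 clone, so a difference between the groups includes any difference between that clone and the control cells. Both groups were otherwise untreated, and RNA was taken from 3 biological replicates per group, hybridised on 9 NCE and 6 CYGB+ arrays. Repeat arrays of a biological replicate were averaged, and n is 3 per group throughout.

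Macroautophagy encloses cytoplasm in a double membrane that then fuses with the lysosome. The ULK kinase complex starts the process. A class III PI3-kinase complex with beclin 1 marks the site of formation with the lipid PI3P, which WIPI proteins read while ATG9 and ATG2 proteins supply membrane. In a pair of ubiquitin-like reactions ATG7 then passes ATG12 through ATG10 to ATG5, and passes the ATG8 proteins (LC3 and GABARAP) through ATG3 to phosphatidylethanolamine. Cargo receptors such as SQSTM1 bind both ATG8 proteins and ubiquitinated cargo and are themselves degraded with it, so their mRNA and protein levels need not move together. Most of these proteins are regulated after translation, and the array measured mRNA alone.

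The transfected gene did not separate the groups. The CYGB probe read 11.87, 12.16 and 11.94 (log2 signal) in NCE replicates 1, 2 and 3, and 11.36, 12.42 and 11.96 in CYGB+ replicates 1, 2 and 3, a log2 difference of -0.07 ± 0.25 (SE) with an adjusted p of 0.87 (limma). The groups overlapped. The probe was well above background on all 9 NCE and all 6 CYGB+ arrays, although NCE cells are named as non-cytoglobin expressing. The place of this probe on the transcript is not known here, so it may lie outside the transfected cDNA and then not read the transgene. Directions below are therefore those of the arrays as labelled. All 10 squamous epithelial markers examined, among them KRT5, KRT14 and TP63, were well above background on 15 arrays, whereas the endothelial marker VWF and the pericyte and fibroblast marker PDGFRB were above it on 0 arrays, the endothelial marker PECAM1 on at most 1 and the leukocyte marker PTPRC on at most 5. The stromal collagen genes COL1A1 and COL1A2 were above background on 12 and 13 arrays, and VIM and the macrophage marker CD68 on 15. Of the squamous markers, KRT6A was lower in CYGB+ (log2 difference -0.51, but 0.01 on the second slide only), and with the replicate number as a block KRT14 was also called higher (0.72, adjusted p = 0.014, limma) and EPCAM lower (-0.50, adjusted p = 0.030, limma). With slide as a block KRT16 was the squamous marker called (-0.68, adjusted p = 0.041, limma). The log2 of the summed signal of the 10 squamous markers was 16.12 to 16.26 in NCE and 16.05 to 16.42 in CYGB+. Of the markers of other cell types, 3 of 8 could be tested (VIM, COL1A1 and CD68). VIM was lower (-0.97, adjusted p = 0.030, limma), while COL1A1 and CD68 gave 0.10 and 0.21 and were not called. The log2 of their summed signal was 12.41 to 12.99 in NCE and 11.53 to 12.07 in CYGB+. Most of that sum was VIM, whose NCE mean was 12.51 against 8.77 for CD68 and 6.47 for COL1A1. The part of these marker differences in the differences below was not tested. In RNA from whole cultures, fewer cells of a kind and less RNA per cell cannot be told apart. Slide and group were nearly inseparable, since 8 NCE arrays shared slide 1 while slide 2 held 1 NCE array (of biological replicate 1) and all 6 CYGB+ arrays. The arrays of NCE replicate 3, repeat 2, and CYGB+ replicate 1, repeat 1, stood apart, with median correlations with the other arrays of 0.9646 and 0.9211. Member genes whose call changed without them are given with and without them.

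The promoters of SQSTM1, ATG12, WIPI1 and ATG101 are shown because their genes had the largest called differences, and because the lysosomal and stress-response motifs that autophagy genes are known for can be looked up in them. Each line holds the 250 bases before the start site, 5′ to 3′ on the strand of the gene, from RefSeq (GRCh38.p14). SQSTM1 has 3 annotated starts, of which the most downstream is shown. The ATG101 window lies inside the annotated span of that gene, which begins at chr12:52065300. Capitals mark a motif match.
SQSTM1, chr5:179820655-179820904, plus strand: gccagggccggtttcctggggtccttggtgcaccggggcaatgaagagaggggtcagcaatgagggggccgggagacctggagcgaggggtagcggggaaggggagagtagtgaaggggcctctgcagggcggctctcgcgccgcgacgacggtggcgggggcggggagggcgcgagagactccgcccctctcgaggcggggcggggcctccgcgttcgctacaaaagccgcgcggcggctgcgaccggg
ATG12, chr5:115841566-115841815, minus strand: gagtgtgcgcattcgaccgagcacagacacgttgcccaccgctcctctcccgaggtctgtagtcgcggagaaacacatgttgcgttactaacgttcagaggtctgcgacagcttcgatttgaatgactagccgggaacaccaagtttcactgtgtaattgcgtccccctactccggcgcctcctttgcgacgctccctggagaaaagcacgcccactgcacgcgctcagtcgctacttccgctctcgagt
WIPI1, chr17:68457497-68457746, minus strand: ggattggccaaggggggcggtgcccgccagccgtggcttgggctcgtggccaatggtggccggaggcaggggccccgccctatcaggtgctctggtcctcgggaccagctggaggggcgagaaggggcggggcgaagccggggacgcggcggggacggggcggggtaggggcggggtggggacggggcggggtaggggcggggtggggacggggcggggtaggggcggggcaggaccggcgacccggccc
ATG101, chr12:52069728-52069977, plus strand: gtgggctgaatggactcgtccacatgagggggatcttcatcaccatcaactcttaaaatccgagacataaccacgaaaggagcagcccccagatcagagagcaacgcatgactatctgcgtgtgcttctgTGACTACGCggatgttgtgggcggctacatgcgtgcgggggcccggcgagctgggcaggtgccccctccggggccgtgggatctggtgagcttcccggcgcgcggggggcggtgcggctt

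Motifs were searched on both strands. CACGTG, the core of the sites bound by TFEB, was present in 6.34% of 35116 promoter windows of this length and in 2 of the 33 members with a window (ATG14 and ATG3), and in none of the 7 called members. The longer CLEAR core TCACGTGA, which contains CACGTG, was in 0.854% of windows and in 0 members. TGACNNNGC, the core of the antioxidant response element, was in 10.9% of windows and in 2 members: ATG101, where it starts 120 bases before the start site, and MAP1LC3B. The ATF4-type motif TGATGNAA was in 3.14% of windows and in 0 members. Only these 250 bases were searched. Among the windows of the 7 called members, the share of G and C ran from 51.6% in GABARAPL1 to 79.6% in WIPI1, against a median of 58.0% over all windows.

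Of the 36 tested members, 7 were higher in the arrays labelled CYGB+ and 0 were lower at an adjusted p under 0.05 (limma). The 7 were SQSTM1, ATG12, WIPI1, ATG101, GABARAPL1, WDR45 and ATG4B, or 19.4% of members, where 6.51% of all 11968 genes tested were called higher and 7.36% lower. At an unadjusted p under 0.05, 13 members were higher and 2 were lower, where 15.1% and 16.8% of all genes were. The median log2 difference of the members was 0.19, against 0.0 over all genes, with 28 positive and 8 negative values. In 14 members (38.9%) every CYGB+ replicate lay above every NCE replicate, as in 17.9% of all genes. In 1 member, TFEB, every CYGB+ replicate lay below, and the share of all genes that did so was not counted. Calls changed in an array-level fit with slide as a block, which separates slide from group through 1 NCE array. In that fit 0 members were called, against 1.91% of all genes called higher. At an unadjusted p under 0.05 (limma), 9 members were higher and 0 lower there (7.37% and 9.69% of all genes). Positive differences numbered 25 of 36, and the median was 0.22. Standard errors were larger for all 7 called members, such as 0.24 against 0.12 for ATG12. All 7 called members kept a positive value in that fit, smaller than before in 5. Without the 2 arrays that stood apart, 10 members were called higher and 0 lower, and the calls over all genes rose too, to 11.5% higher and 13.2% lower. With the replicate number as a block, 7 members were higher and 2 lower (8.16% and 9.46% of all genes).

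**Figure D1:**
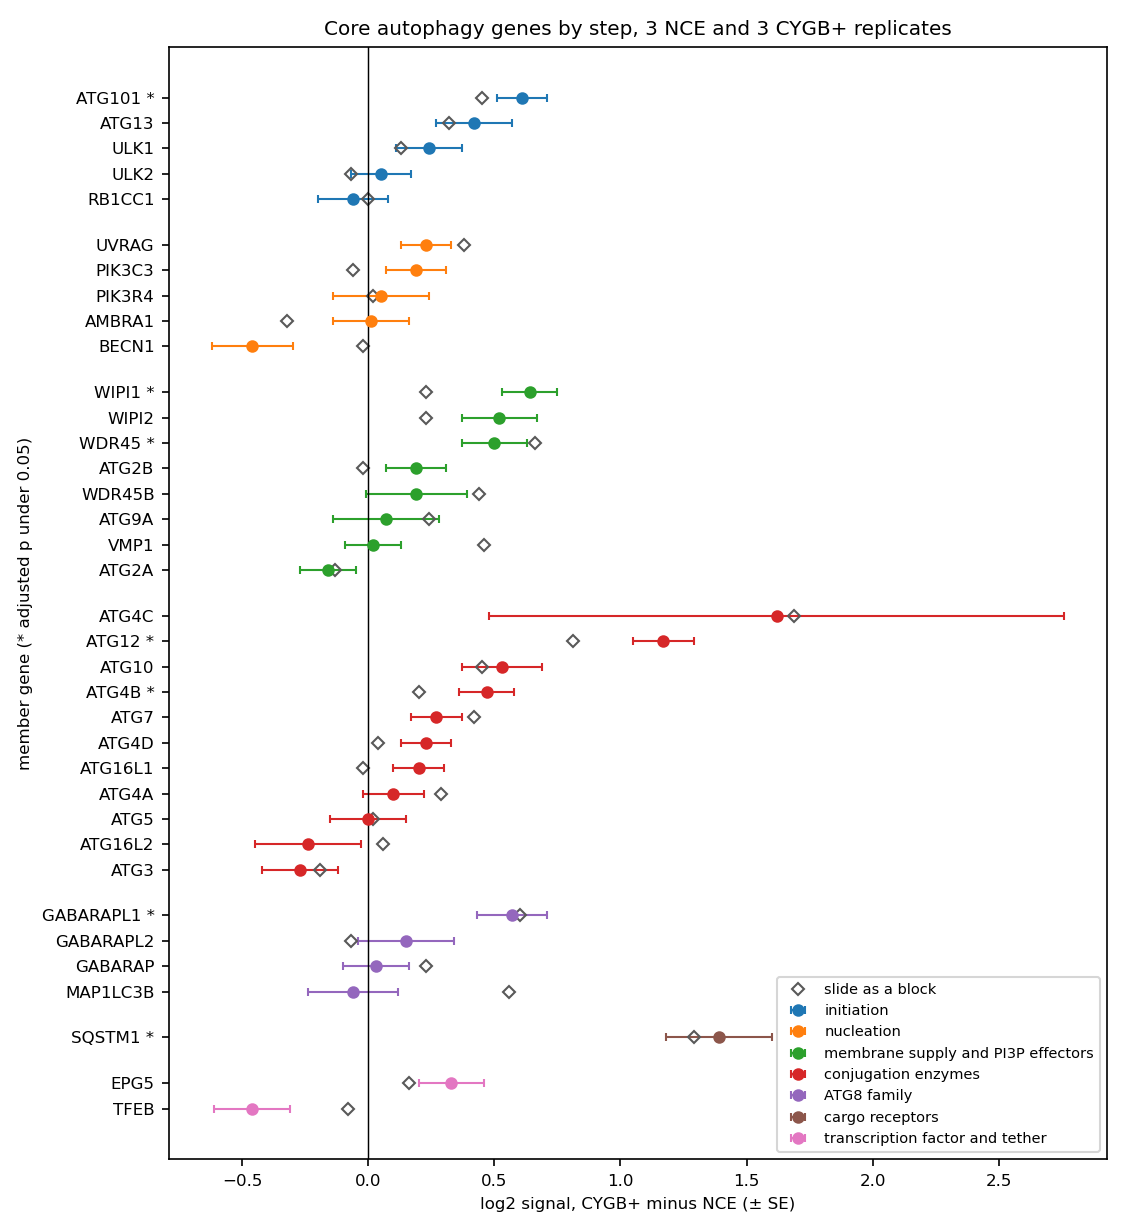
Log2 signal in CYGB+ minus NCE for the 36 tested autophagy genes (3 replicates per group), grouped by step. Filled points with bars are the difference ± SE, open diamonds the same difference with slide as a block, and asterisks mark an adjusted p under 0.05; the values run from -0.46 for BECN1 and TFEB to 1.62 for ATG4C, whose bar is the widest.

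By step, the called genes lay in initiation (1 of 5 tested), membrane supply and PI3P effectors (2 of 8), conjugation (2 of 11), the ATG8 family (1 of 4) and cargo receptors (1 of 1), with 0 of 5 in nucleation and 0 of 2 in the pair formed by the transcription factor TFEB and the tether EPG5. The median log2 difference was 0.24 in initiation (range -0.06 to 0.61), 0.05 in nucleation (range -0.46 to 0.23) and 0.23 in conjugation (range -0.27 to 1.62, the top being ATG4C, whose value rests on a single replicate). With slide as a block these medians were 0.13, -0.02 and 0.2. The steps hold few genes and were not tested against each other, so the order of the medians is a description.

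In initiation, ATG101, which stabilises ATG13 in the ULK complex, was the member with the largest difference. ATG101 read 10.24, 10.30 and 10.15 (log2 signal) in NCE and 10.80, 10.89 and 10.81 in CYGB+, in the order of replicates 1, 2 and 3. The lowest CYGB+ replicate was above the highest NCE replicate, and no CYGB+ array overlapped an NCE array. The log2 difference was 0.61 ± 0.10 (SE), 1.52-fold, with an adjusted p of 0.011 (limma). Without NCE replicate 3 it was 0.57 with an adjusted p of 0.061. ATG13, the adaptor that links the complex to its kinase, gave 0.42 ± 0.15 (adjusted p = 0.11, limma) from its brightest probe and 0.42 ± 0.10 (adjusted p = 0.033, limma) from a dimmer one. The kinases ULK1 and ULK2 gave 0.24 ± 0.13 and 0.05 ± 0.12 (0.32 ± 0.10 by a dimmer ULK2 probe, adjusted p = 0.069, limma), and RB1CC1, the FIP200 scaffold, gave -0.06 ± 0.14; none of the 3 was called.

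In nucleation no member was called in either direction. BECN1, the beclin 1 subunit of the PI3-kinase complex, had the largest difference. BECN1 read 10.36, 10.79 and 10.72 in NCE and 9.95, 10.12 and 10.41 in CYGB+ (log2 signal, replicates 1 to 3). Replicate 3 of CYGB+ was just above replicate 1 of NCE, so the groups overlapped by that pair. BECN1 thus differed by -0.46 ± 0.16 on the log2 scale (SE; adjusted p = 0.11, limma), with an adjusted p of 0.045 when the replicate number was a block, and the difference was -0.02 when slide was a block. The catalytic subunit PIK3C3, its regulatory partner PIK3R4, the beclin 1 activator AMBRA1 and the subunit UVRAG lay between 0.01 and 0.23. With slide as a block they ranged from -0.32 for AMBRA1 to 0.38 for UVRAG. UVRAG, at 0.23 ± 0.10 (adjusted p = 0.16, limma), was the member of this step in which every CYGB+ replicate was above every NCE replicate.

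Among the genes for membrane supply and PI3P binding, WIPI1 and WDR45 were called, and both encode PI3P-binding propeller proteins of one family. WIPI1 read 9.57, 9.39 and 9.63 in NCE and 10.21, 10.07 and 10.23 in CYGB+ (log2 signal, replicates 1 to 3), and no array of one group overlapped the other. WIPI1 rose by 0.64 ± 0.11 (SE) on the log2 scale, 1.56-fold, with an adjusted p of 0.014 (limma). The NCE array that shared slide 2 with the CYGB+ arrays read 9.91, which was 0.51 above the mean of the other arrays of its own replicate, and the lowest CYGB+ array read 9.95. With slide as a block the WIPI1 difference was 0.23 ± 0.18 (adjusted p = 0.69, limma). It also missed the threshold without NCE replicate 2 (log2 0.57, adjusted p = 0.068, limma) and without NCE replicate 3 (0.69, adjusted p = 0.051, limma).

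WDR45 (WIPI4), which works with ATG2 in lipid transfer, rose by 0.50 ± 0.13 on the log2 scale (1.42-fold, adjusted p = 0.048, limma) and gave 0.66 ± 0.21 with slide as a block (adjusted p = 0.10, limma). Its call was lost on leaving out any of the 3 NCE replicates or CYGB+ replicate 2 or 3, with log2 differences of 0.38 to 0.53 and adjusted p of 0.089 to 0.17 (limma). WIPI2, which recruits the ATG16L1 complex to PI3P, just missed the threshold at 0.52 ± 0.15 (adjusted p = 0.064, limma), and its second probe gave 0.46 ± 0.10 (adjusted p = 0.026, limma). Without the 2 arrays that stood apart, the brightest WIPI2 probe was called, at 0.52 ± 0.12 (adjusted p = 0.017, limma). WDR45B (WIPI3), the scramblases ATG9A and VMP1 and the lipid transfer proteins ATG2A and ATG2B ranged from -0.16 to 0.19, and none was called. With slide as a block they ranged from -0.13 for ATG2A to 0.46 for VMP1. The WDR45B difference of 0.19 ± 0.20 was 0.01 ± 0.09 without the 2 arrays that stood apart.

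ATG12, the ubiquitin-like protein joined to ATG5, showed the difference that held best across settings. It read 9.52, 9.53 and 9.68 in NCE and 10.86, 10.54 and 10.85 in CYGB+ (log2 signal, replicates 1 to 3). The lowest CYGB+ array, at 10.46, was above every NCE array. The log2 difference was 1.17 ± 0.12 (SE; 95% interval 0.89 to 1.46), 2.26-fold, with an adjusted p of 0.0042 (limma). It stayed called on leaving out any 1 of the 6 replicates, at 1.12 to 1.28. The NCE array on slide 2 read 9.88, which was 0.54 above the other arrays of its replicate, and the difference with slide as a block was 0.81 ± 0.24 (adjusted p = 0.08, limma). A second ATG12 probe was too dim to be tested.

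None of the E1 and E2 enzymes of conjugation was called. ATG7, the E1 enzyme of both reactions, gave 0.27 ± 0.10 and 0.31 ± 0.09 from its probes (adjusted p = 0.13 and 0.068, limma). ATG10, the E2 enzyme for ATG12, gave 0.53 ± 0.16 (adjusted p = 0.069, limma), and 0.41 ± 0.12 (adjusted p = 0.046, limma) without the 2 arrays that stood apart. ATG10 was among the dimmest members, and its value depended on the background correction: it was 1.25 ± 0.31 (adjusted p = 0.042, limma) with the processed signal and quantile scaling, where ATG12 was 1.09 ± 0.17, and 1.43 ± 0.36 (adjusted p = 0.057, limma) with plain background subtraction, where ATG12 was 1.25 ± 0.16. ATG3, the E2 enzyme for the ATG8 proteins, gave -0.27 ± 0.15 (adjusted p = 0.27, limma). ATG5, which accepts ATG12, had the same mean of 10.24 in both groups by its brightest probe, while a dimmer probe gave 0.40 ± 0.13 (adjusted p = 0.086, limma). ATG16L1, which holds the ATG12-ATG5 conjugate to the membrane, gave 0.20 ± 0.10, and ATG16L2 gave -0.24 ± 0.21.

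Of the ATG4 proteases, which process ATG8 proteins and release them from membranes, ATG4B rose by 0.47 ± 0.11 on the log2 scale (1.38-fold, adjusted p = 0.034, limma). That call depended on the replicates, with adjusted p from 0.045 to 0.14 and log2 differences from 0.41 to 0.53 on leaving out each in turn, and was kept only without CYGB+ replicate 2. A second ATG4B probe gave 0.14 ± 0.15 (adjusted p = 0.58, limma), and with slide as a block the brightest gave 0.20 ± 0.19. ATG4A and ATG4D gave 0.10 ± 0.12 and 0.23 ± 0.10 and were not called. ATG4C had the largest difference of any member and the largest error. It read 6.73, 7.05 and 7.0 in NCE and 7.29, 6.69 and 11.68 in CYGB+ (log2 signal, replicates 1 to 3), so a single replicate stood far above the others and the other CYGB+ replicates overlapped NCE. That replicate held an array at 16.46 while the remaining CYGB+ arrays lay between 6.67 and 7.88. The log2 difference was 1.62 ± 1.14 (adjusted p = 0.38, limma), and 0.06 without CYGB+ replicate 3.

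In the ATG8 family, GABARAPL1 was called. It read 9.77, 9.75 and 10.10 in NCE and 10.64, 10.36 and 10.32 in CYGB+ (log2 signal, replicates 1 to 3). The replicate means did not overlap, although the lowest CYGB+ array (10.11) was below the highest NCE array. GABARAPL1 rose by 0.57 ± 0.14 (SE) on the log2 scale, 1.48-fold, with an adjusted p of 0.041 (limma), 0.60 ± 0.21 with slide as a block (adjusted p = 0.15, limma), and 0.46 ± 0.16 by a second probe (adjusted p = 0.095, limma). The call was lost on leaving out any 1 of the 6 replicates, with log2 differences of 0.47 to 0.68 and adjusted p of 0.061 to 0.16 (limma). MAP1LC3B, the LC3 protein most used as a marker of autophagosomes, gave -0.06 ± 0.18 (95% interval -0.47 to 0.36) by its brightest probe and 0.12 ± 0.12 by a dimmer one. With slide as a block these MAP1LC3B probes gave 0.56 ± 0.18 (adjusted p = 0.13, limma) and 0.20. GABARAP gave 0.03 ± 0.13 and GABARAPL2 0.15 ± 0.19. GABARAPL2 gave 0.34 ± 0.08 (adjusted p = 0.022, limma) without the 2 arrays that stood apart.

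SQSTM1 (p62), the cargo receptor for ubiquitinated proteins, had the largest called difference. It read 11.20, 11.06 and 11.12 in NCE and 11.99, 12.84 and 12.71 in CYGB+ (log2 signal, replicates 1 to 3). Every CYGB+ replicate was above every NCE replicate. CYGB+ replicate 1, the lowest of its group, held an array that stood apart and read 11.28, the same as the highest NCE array to 2 decimals. SQSTM1 rose by a log2 difference of 1.39 ± 0.21 (SE; 95% interval 0.89 to 1.88), 2.62-fold, with an adjusted p of 0.0095 (limma). Without the 2 arrays that stood apart it was 1.57 ± 0.09 (adjusted p = 0.0002, limma). The NCE array on slide 2 read 11.24, inside the range of the other NCE arrays, and slide as a block gave 1.29 ± 0.42 (adjusted p = 0.12, limma). The call was lost without NCE replicate 2, at a log2 difference of 1.35 and an adjusted p of 0.050 (limma).

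TFEB, the transcription factor that activates lysosomal and autophagy genes, read 10.44, 10.86 and 10.83 in NCE and 10.04, 10.32 and 10.37 in CYGB+ (log2 signal, replicates 1 to 3). Every CYGB+ replicate was below every NCE replicate. The log2 difference was -0.46 ± 0.15 (adjusted p = 0.089, limma), with an adjusted p of 0.032 when the replicate number was a block; it was -0.08 with slide as a block, and a second probe gave -0.21 ± 0.15. TFEB is regulated mainly by phosphorylation and its place in the cell, which an mRNA array does not measure. EPG5, a tether of autophagosomes and late endosomes, gave 0.33 ± 0.13 (adjusted p = 0.14, limma), and 0.20 ± 0.09 without the 2 arrays that stood apart.

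**Figure D2:**
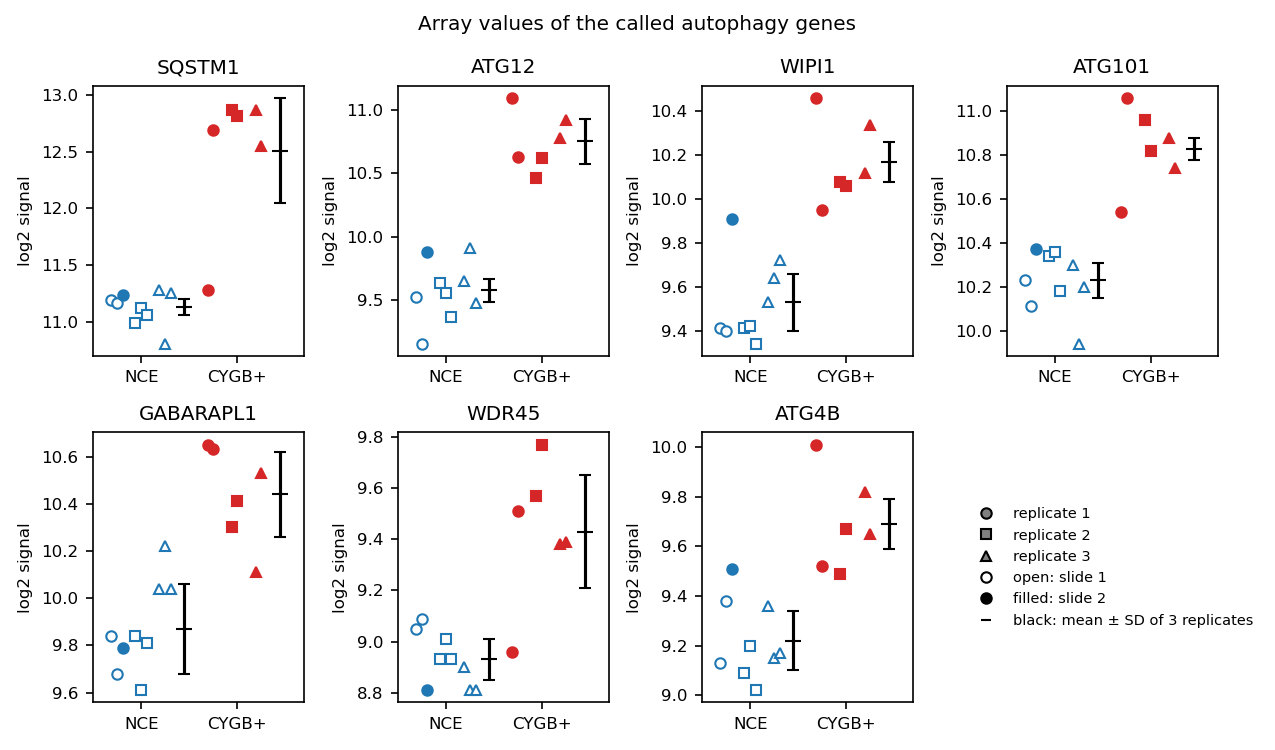
Log2 signal on each of the 15 arrays for the 7 called autophagy genes, NCE in blue and CYGB+ in red, with marker shape for the biological replicate, open markers for slide 1, filled markers for slide 2, and the mean ± SD of the 3 replicates in black. The single filled blue marker in each panel, the NCE array that shared a slide with the CYGB+ arrays, lies below all 6 CYGB+ markers in 6 of the 7 genes, the exception being ATG4B.

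The only comparison within a slide is between that NCE array and the 6 CYGB+ arrays on slide 2. It lay below every CYGB+ array in 12 of 36 members (33.3%), as in 16.4% of all genes tested, and above every CYGB+ array in 2 members (5.56%), as in 19.1% of all genes. The 12 were ATG101, UVRAG, WIPI1, WDR45, VMP1, ATG4A, ATG7, ATG10, ATG12, MAP1LC3B, GABARAPL1 and SQSTM1. A single NCE array has no replicate on that slide, so these values cannot separate the group from the spread between NCE arrays.

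**Figure D3:**
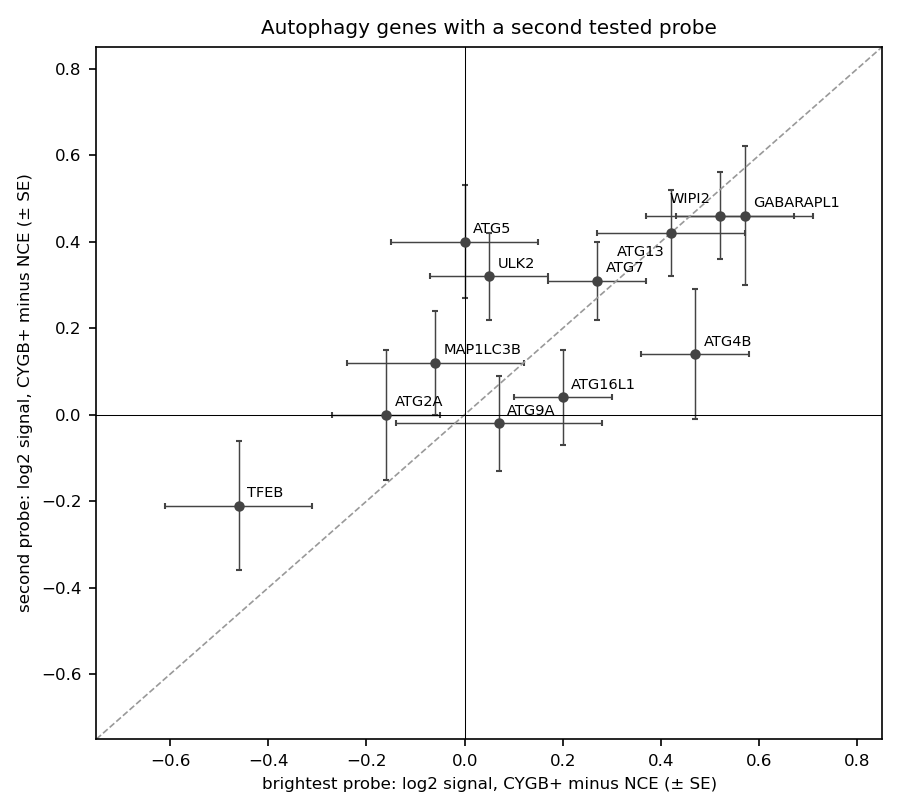
Log2 difference, CYGB+ minus NCE (± SE), from the brightest probe of a gene on the horizontal axis and from its second tested probe on the vertical axis, for 12 autophagy genes; the dashed line marks equal values. WIPI2, GABARAPL1, ATG13 and ATG7 lie near the line, whereas ATG4B lies below it (0.47 and 0.14) and ATG5 above it (0.40 by the second probe).

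A second tested probe was available for 12 genes, as the plot of both probes shows. The probes of a gene had the same direction in 8 of the 12 and the same call in 8 of the 12. In all 8 with the same call, neither probe was called. ATG4B and GABARAPL1 were called by the brightest probe alone, and ATG13 and WIPI2 by the second probe alone. No gene was called by both of its probes. A second probe can read other transcript forms of a gene, and the place of the probes is not known here.

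Around this core, 52 of 57 genes of related lists were tested. At an adjusted p under 0.05 (limma), 3 were higher and 3 lower, where 6.51% of all genes were higher and 7.36% lower. The median log2 difference of these related genes was 0.01. In the nutrient-sensing list (mTORC1, AMPK and TSC), 1 of 11 was called: RHEB, the GTPase that activates mTORC1, at 0.46 ± 0.11 (adjusted p = 0.038, limma). In the fusion list, 2 of 13 were called in opposite directions. RAB7A, the late endosomal GTPase, gave 0.48 ± 0.11 (adjusted p = 0.029, limma), and VPS16, a core subunit of the HOPS tethering complex, gave -0.75 ± 0.12 (adjusted p = 0.012, limma). VPS16 was still called with slide as a block, at -0.80 (adjusted p = 0.018, limma), and no array of its groups overlapped. The other 5 called genes of these lists were not called in that fit, where TMEM41B was -0.83, GAA -0.54, CTSL 0.52, RHEB 0.36 and RAB7A 0.19. OPTN, an autophagy receptor, was 0.47 ± 0.14 (adjusted p = 0.071, limma), and was called with the replicate number as a block (adjusted p = 0.043, limma).

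Among receptors and further factors, 1 of 11 was called, TMEM41B, a lipid scramblase that acts with VMP1, at -0.83 ± 0.19 (adjusted p = 0.031, limma). The TMEM41B probe is annotated to a noncoding RefSeq transcript. In the lysosome list, 2 of 15 were called. The protease CTSL was higher by 0.62 ± 0.15 on the log2 scale (1.53-fold, adjusted p = 0.039, limma). GAA, the lysosomal glucosidase, was lower, at -0.61 ± 0.10 (adjusted p = 0.012, limma). Neither of the 2 MiT/TFE factors tested, MITF and TFE3, was called.

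**Figure D4:**
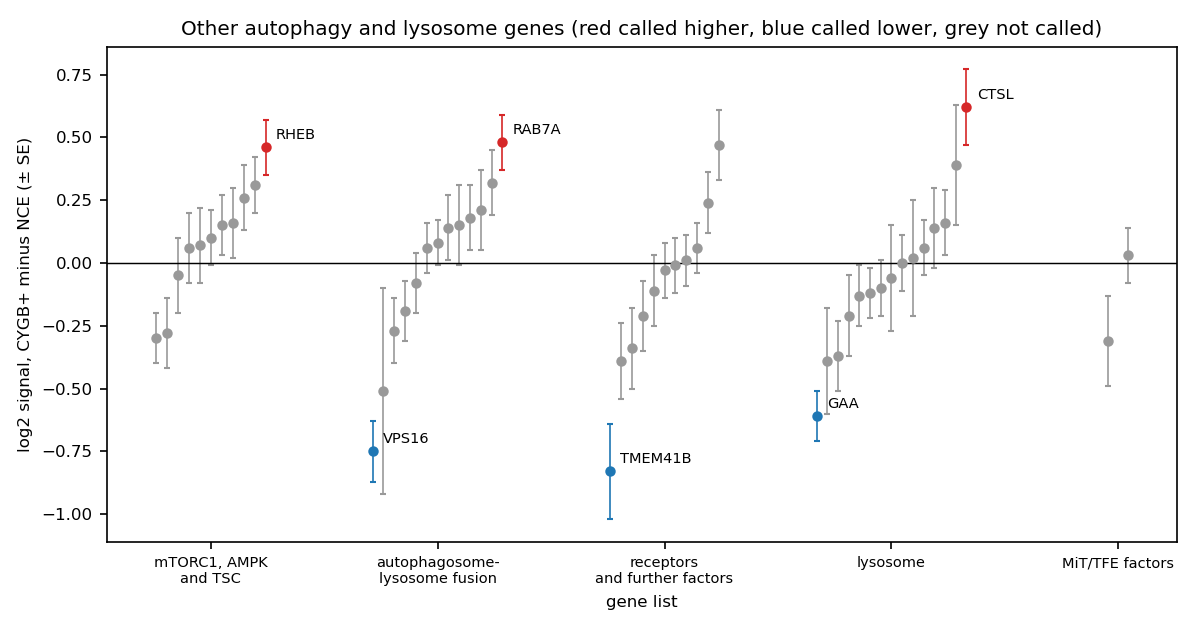
Log2 signal in CYGB+ minus NCE (± SE, 3 replicates per group) for the 52 tested genes of 5 related lists, sorted within each list. Genes called higher (RHEB, RAB7A, CTSL) are red, genes called lower (VPS16, TMEM41B, GAA) blue and the rest grey; the grey point farthest from 0 is SNAP29, at -0.51.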

How the data were processed

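RNA of PE/CA-PJ41 cells was labelled from 50 ng and hybridised by the authors to Agilent SurePrint G3 Human 8x60K arrays, scanned and extracted with Agilent Feature Extraction 10.7.3.1 per the file headers. The deposited scanner files hold spot intensity values on a linear scale, with flags; the deposited value table holds log2 values processed and row-centred by the authors. The methods and the labels differ on which dye was used for NCE; the deposited table follows the green channel on every array, so green was used, and the red channel, whose content is not stated, was not.

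Green median intensity and local background median were corrected by normexp (offset 50) with limma 3.58.1 in R 4.3.3, quantile-normalized between the 15 arrays as in the study's methods, and taken to log2. The mean intensity planned at the outset is not in these files, and the median replaced it. The offset pulls differences of dim probes towards 0. Control and outlier-flagged spots were left out, spots of a probe and then arrays of a biological replicate averaged, and 19580 of 42405 probes, well above background on every array of at least 1 group, were tested with lmFit and eBayes, 2-sided, with Benjamini-Hochberg adjustment; a call is an adjusted p under 0.05. RefSeq tables (GRCh38.p14) named 25422 probes. The number of arrays limits the precision, and p-values measure the spread between 3 RNA extractions of a line and a clone of it.

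Deviations of same-numbered NCE and CYGB+ replicates from their group means correlated at 0.216, 0.232 and 0.312 over all tested probes. Between differently numbered replicates the correlations ran from -0.514 to 0.304, so they do not settle whether the numbers pair the samples. The main fit left the number out, and the fit with the replicate number as a block is given where it changed a call. Slide was a fixed block in an array-level fit with the biological replicate as a random block (consensus correlation 0.208).

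Values per replicate are given for called members with at least a 1.5-fold difference and for the member with the largest difference in each step; members with an adjusted p of 0.05 to 0.1 are named, as are the 2 called genes with the largest difference in each related list. Members and lists were chosen with earlier results of these data known; an item of the related lists is not reported here. Figures were drawn with matplotlib. Alternatives were other signals, scalings, filters and tests, the deposited table, blocks for replicate and slide, leaving out each replicate, and, chosen after seeing the data, leaving out the 2 arrays that stood apart (over 3 median absolute deviations from the median correlation) and plain background subtraction.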

Additional observations from a re-analysis of the deposited data

Results flagged for a closer look

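Single arrays lay far from the rest of their group in 18 of 74 combinations of a gene and a group. The rule used flags about 1 in 20 such groups by chance when the arrays are independent. Here the arrays are repeats of 3 biological replicates per group, and the combinations share the same arrays, so that rate is only nominal. Of the 18, 10 came from the first array of CYGB+ replicate 1 and 4 from the second array of NCE replicate 3, the arrays that stood apart over all probes. On the CYGB+ array the log2 signal was high for ATG5 (11.0), ATG10 (7.79), ULK2 (8.06), WDR45B (13.55) and EPG5 (7.7), and low for ULK1 (8.0), PIK3R4 (7.48), GABARAP (11.25), GABARAPL2 (9.09) and SQSTM1 (11.28, with the other CYGB+ arrays at 12.55 to 12.87). On the NCE array it was high for ATG5 (10.70) and ULK2 (7.99) and low for PIK3R4 (7.69) and GABARAPL2 (9.71).

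The NCE array on slide 2 was high for PIK3C3 (8.37) and low for MAP1LC3B (9.41). The first array of NCE replicate 3 was high for ATG10 (7.25). The second array of CYGB+ replicate 3 read 16.46 for ATG4C, against 6.67 to 7.88 on the other CYGB+ arrays.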

How the results depend on the processing

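Of the 7 called autophagy genes, ATG12 was called in 18 of 20 alternatives, SQSTM1 in 16, ATG101 in 15, WIPI1 in 14, WDR45 and ATG4B in 8 each and GABARAPL1 in 7 of 19. No direction of a called member reversed. The count of 7 higher members became 4 with scaling to the 75th percentile, 3 with the methods' t-test, 13 in the array-level fit without slide, and 0 both with slide as a block and on the second slide only, and ran from 2 to 6 on leaving out each replicate. The count of 0 lower members became 2 with the replicate block (BECN1 and TFEB; it changed no other member's call) and 2 in the array-level fit, and was 0 on leaving out each replicate. Over all probes, 1154 were called higher and 1217 lower, against 316 and 441 with slide as a block, 1474 and 1612 with the replicate block, 817 and 778 with scaling to the 75th percentile, 397 and 364 with the methods' t-test, 2278 and 2335 in the array-level fit, 2041 and 2214 without the 2 arrays that stood apart, and 3 and 2 on the second slide only. The cause of these shifts was not tested.

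Among the 52 related genes, the 3 higher became 1 with scaling to the 75th percentile and with the deposited table, 0 with the processed signal (either scaling), with plain background subtraction, with the methods' t-test, with slide as a block and on the second slide only, 5 in the array-level fit, 4 with the replicate block and 7 without the 2 arrays that stood apart, and ran from 0 to 2 on leaving out each replicate. The 3 lower became 1 with the methods' t-test and with slide as a block, 5 in the array-level fit and 0 on the second slide only, and ran from 0 to 3 on leaving out each replicate.

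The median log2 difference of initiation moved from 0.24 to 0.13 with slide as a block and 0.09 on the second slide only. That of membrane supply and PI3P effectors moved from 0.19 to 0.30 with the processed signal at the 75th percentile. That of conjugation moved from 0.23 to 0.32 with the processed signal and quantile scaling, 0.28 with it at the 75th percentile, and 0.18 on the second slide only. That of the ATG8 family moved from 0.09 to 0.39 with slide as a block and 0.42 on the second slide only. That of TFEB and EPG5 moved from -0.07 to 0.03 with the processed signal at the 75th percentile, 0.04 with slide as a block and 0.09 on the second slide only. Signal limits the dim members: ATG14 and MAP1LC3A were not tested, and differences of the dimmest tested members (ATG10, UVRAG, EPG5) are drawn towards 0 by the offset. No fit changed the offset alone. The median raw green signal of the arrays was 61 to 76 over a local background of 24 to 29 on slide 1. On slide 2 it was 45 to 62.5 over a local background of 37 to 43. The part of this slide difference in the values of dim members was not tested. With plain background subtraction ATG10 read 1.43, UVRAG 0.57 and EPG5 0.94, and with the processed signal and quantile scaling 1.25, 0.58 and 0.39. ATG10 was called with the processed signal at either scaling (1.21 at the 75th percentile), and EPG5 with plain background subtraction.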
